A study of Mus musculus with 6 samples.

Results

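Transcripts of 10 chemokine genes were followed in mammary tumor cells of mice, namely Cxcl1, Cxcl2, Cxcl5, Cxcl12, Cxcl14, Cxcl16, Ccl2, Ccl7, Ccl20 and Cx3cl1. The genes were chosen by name as chemokines made by tumor cells and by stroma. Of these, 8 were listed among the 10995 rows of the deposited count table, and Cxcl2 and Ccl20 were not listed and were not analysed here. The comparison was between 3 libraries labelled wild type and 3 labelled Nr4a1-/-, called knockout from here on. All came from FVB/NJ mice that carry the PyVT transgene, in which the MMTV promoter drives the polyoma middle T oncogene in the mammary epithelium, so the controls also bore tumors. The animals of the groups were matched for age, and their age is not given in the sources used. Nr4a1 encodes an orphan nuclear receptor of the immediate early class. Whether each library is a separate animal is not stated in the labels, and p-values therefore describe library-to-library spread that may be technical.

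Chemokines are small secreted proteins that bind G protein-coupled receptors and set the direction in which leukocytes migrate. In mammary tumors the epithelial cells can secrete neutrophil attractants such as Cxcl1 and Cxcl5, macrophages and fibroblasts can secrete the monocyte attractants Ccl2 and Ccl7, and fibroblasts are a known source of Cxcl12. Cxcl16 and Cx3cl1 are made as membrane-bound proteins from which proteases release a soluble chemokine.

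Total counts ranged from 19569173 to 24188875 per library. The unit CPM below is the count for every 1000000 reads of a library whose size was adjusted by TMM. The first principal component of log2 CPM carried 60.1% of the variance and set wild type replicate 1, at -51.3, apart from the other libraries, at -2.22 to 28.8. Nr4a1 itself had 711, 406 and 358 counts in the wild type libraries and 612, 847 and 746 in the knockout libraries, so its transcript was not lower with the knockout label, and directions below are between libraries as labelled. Luminal epithelial markers were abundant, with Krt8, a keratin of simple epithelia, at 933 to 1743 CPM. Markers of stroma and macrophages were present too, with Col1a1, type I collagen of fibroblasts, at 807 to 3435 CPM and the macrophage marker Adgre1 at 5.77 to 15.1 CPM. None of the 16 T and NK cell markers or 8 B cell markers was among the listed genes.

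The neutrophil attractants sit in 1 cluster on chromosome 5. In GRCm38 with the GENCODE M21 annotation, Cxcl5 lies at 90759360 to 90761624 and Cxcl1 at 90891241 to 90893115, both on the plus strand. Cxcl3, a neutrophil attractant outside the group of 10, lies between them, and Cxcl2 lies 10.8 kb beyond Cxcl1. The stretches from 100 to 31 bases before the RefSeq start sites (GRCm38.p6, plus strand) are shown because the neighbours Cxcl1 and Cxcl3 carry the same motif of the transcription factor NF-kB while their fitted fold changes, neither of which passed the test, had opposite signs. Capitals mark the kappaB motif GGAATTTCC, searched on both strands of the 250 bases before the start. The last sequence, of the stromal chemokine Cxcl12, holds no such match in its window.
Cxcl3: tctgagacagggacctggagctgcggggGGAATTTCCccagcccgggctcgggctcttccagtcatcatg
Cxcl1: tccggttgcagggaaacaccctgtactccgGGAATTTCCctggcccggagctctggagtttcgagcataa
Cxcl2: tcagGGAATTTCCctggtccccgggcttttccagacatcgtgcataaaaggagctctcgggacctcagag
Cxcl12: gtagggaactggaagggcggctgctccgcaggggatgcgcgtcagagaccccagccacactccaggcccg
These windows are chr5:90786001-90786070, chr5:90891145-90891214, chr5:90903799-90903868 and chr6:117168435-117168504. The motif began 72, 70 and 96 bases before the start of Cxcl3, Cxcl1 and Cxcl2, and 0.286% of the 32851 RefSeq promoter windows hold it. The NBRE motif AAAGGTCA, to which Nr4a1 is known to bind as a monomer, had 0 matches in the windows of Cxcl1, Cxcl2, Cxcl3, Cxcl12, Cxcl14, Ccl20 and Cx3cl1, and 1.34% of all windows hold it. The AP-1 motif TGANTCA, at which the Fos and Jun factors bind, also had 0 matches in these windows, against 6.75% of all windows. A match is a description of the letters and not of binding, and the windows of Cxcl5, Cxcl16, Ccl2 and Ccl7 were not analysed here.

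None of the 8 listed chemokines passed the edgeR quasi-likelihood test, whose p-values were adjusted over the whole table by the Benjamini-Hochberg method at 0.05. The same test called 0% of all 10995 genes. At an unadjusted p under 0.05 it gave 1 of the 8, Cxcl16, against 7.88% of all genes (866 genes). DESeq2 called 0 of the 8 and 0.938% of all genes, and limma-voom called 0 of the 8 and 0% of all genes. The members were divided evenly, with 4 above and 4 below 0 and a median log2 fold change (knockout over wild type) of -0.0061, against -0.0024 over all genes. Wild type and knockout values were separate for 1 of the 8, or 12.5%, against 17.4% of all genes, which is no more than the table as a whole. Leaving out a library can only keep or raise such a count, for the 8 and for all genes. The count was 3 without wild type replicate 1, against 24.3% of all genes, and 5 without wild type replicate 2, against 33.1%. Leaving out knockout replicate 1 gave 3, against 26.3%, and leaving out knockout replicate 3 gave 2, against 34.8%. It stayed at 1 without wild type replicate 3, against 27.8%, and without knockout replicate 2, against 23.3%. Cxcl16 was among the genes counted each time.

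**Figure D1:**
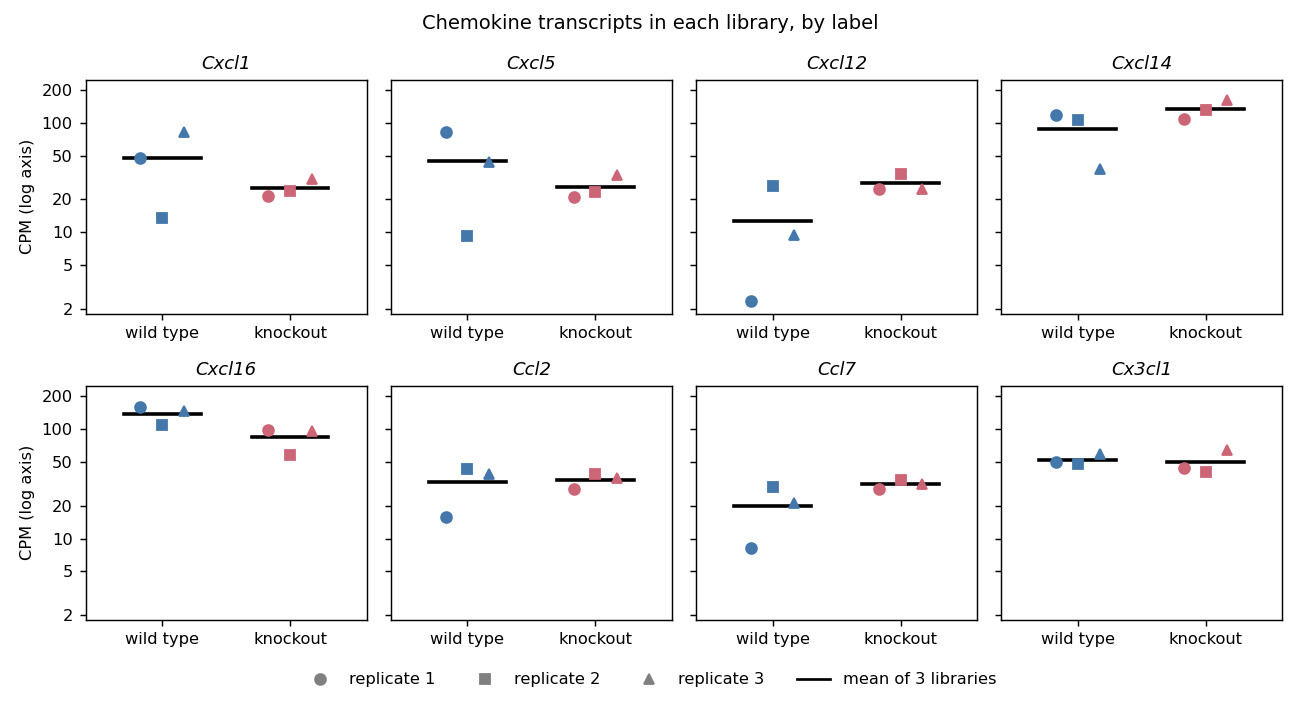
Level of each of the 8 listed chemokines in CPM (log axis) in 3 libraries labelled wild type and 3 labelled knockout; marker shapes are replicate numbers and black lines are the means. For Cxcl1, Cxcl5, Cxcl12, Cxcl14, Ccl2 and Ccl7 the wild type points are spread more widely than the knockout points, and only Cxcl16 has groups that do not overlap.

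Cxcl1, which attracts neutrophils through the receptor Cxcr2, stood at 48.3, 13.6 and 82.4 CPM in wild type replicates 1, 2 and 3 and at 21.4, 23.7 and 31.1 CPM in knockout replicates 1, 2 and 3. Wild type replicate 2 was thus the lowest of all libraries and wild type replicate 3 the highest, with the knockout libraries between them. The wild type mean was 48.1 CPM ± 34.4 (SD, n = 3) against 25.4 CPM ± 5.09 (SD, n = 3). The log2 fold change was -0.92 (SE 0.60) and missed the threshold (edgeR adjusted p = 0.60). It was -0.28 without wild type replicate 3 and -1.36 without wild type replicate 2.

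Cxcl5, a second ligand of Cxcr2, stood at 83.3, 9.36 and 43.7 CPM in the wild type libraries and at 20.9, 23.2 and 33.5 CPM in the knockout libraries. Again wild type replicate 2 was the lowest library, and the groups overlapped. The log2 fold change was -0.81 (SE 0.71) and missed the threshold (edgeR adjusted p = 0.66). It was -0.037 without wild type replicate 1 and -1.30 without wild type replicate 2, so its size rested on single wild type libraries.

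Cxcl3, between these genes on the chromosome, went the other way in its values, at 7.37, 11.2 and 9.55 CPM with the wild type label and 13.4, 22.6 and 16.3 CPM with the knockout label. All knockout libraries stood above all wild type libraries. The fold change, 0.90 on the log2 scale (SE 0.25), missed the threshold (edgeR adjusted p = 0.57, DESeq2 adjusted p = 0.11). Cxcl3 shares 4.14% of the 31-base words of its longest transcript with Cxcl2, whereas Cxcl1 shares 0% with any gene. A difference in fold change between Cxcl1 and Cxcl3 was not tested.

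Cxcl12, the ligand of the receptors Cxcr4 and Ackr3 that retains and recruits stem cells and leukocytes, had the widest range of the 8. It lies on chromosome 6 at 117168535 to 117181367 on the plus strand. It stood at 2.37, 26.3 and 9.55 CPM in wild type replicates 1, 2 and 3, the lowest value resting on 49 counts, and at 24.8, 34.4 and 25.0 CPM in the knockout libraries. Wild type replicate 2 stood among the knockout libraries, and the others were lower. Means of 12.8 CPM ± 12.3 (SD, n = 3) for wild type and 28.1 CPM ± 5.45 (SD, n = 3) for knockout gave a log2 fold change of 1.14 (SE 0.76), which missed the threshold (edgeR adjusted p = 0.60). The value was 0.65 without wild type replicate 1 and 2.23 without wild type replicate 2.

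Markers of several stromal cell types, each lowest on average in wild type replicate 1, varied alongside Cxcl12 across libraries. Of 14 fibroblast markers 12 were listed, of which 11 had a log2 fold change above 0 (49.4% of all genes did), with a median of 0.79, 0 passing the edgeR test and 0 whose groups did not overlap (0%, against 17.4% of all genes). Their mean level was 6.32, 7.59 and 6.65 log2 CPM in wild type replicates 1, 2 and 3 and 7.42, 7.99 and 7.52 in the knockout libraries, in the same order of wild type libraries as Cxcl12. Their summed level, in which fibronectin (Fn1) weighs most, overlapped widely, at 11508 to 16245.5 CPM with the wild type label and 10581 to 17632.5 CPM with the knockout label. Without Fn1, a sum added after the values were seen, it was 2442 to 5947 CPM and 5292 to 9566 CPM. Postn, or periostin, Pdgfra, a receptor of platelet-derived growth factors, and the collagen gene Col6a2 gave 1.12 (SE 0.37), 0.79 (SE 0.31) and 1.05 (SE 0.49) as fold changes on the log2 scale, with groups that overlapped. Lum and Fap were not listed.

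Pericyte and smooth muscle markers were listed for 9 of 11 genes, of which 7 lay above 0 with a median of 1.18, and the groups did not overlap for 5 (55.6%, against 17.4% of all genes). Their mean level was 4.39 to 5.53 log2 CPM in the wild type libraries and 5.87 to 6.61 in the knockout libraries. Their summed level overlapped, at 567 to 1344 CPM with the wild type label and 1097 to 2276 CPM with the knockout label. Without Acta2, the most abundant of them, a sum added after the values were seen, it was 413 to 558 CPM and 555 to 877 CPM, which also overlapped. Rgs5, a pericyte regulator of G protein signalling, stood at 1.94, 5.41 and 2.40 CPM and 13.3, 25.7 and 25.0 CPM, a log2 fold change of 2.71 (SE 0.48) that passed in DESeq2 (adjusted p = 7.4e-06) and not in edgeR (adjusted p = 0.57). Abcc9, a subunit of potassium channels, had 1.79 (SE 0.44, DESeq2 adjusted p = 0.021), and the muscle filament gene Des had 1.47 (SE 0.42, DESeq2 adjusted p = 0.065). In every wild type library Rgs5 and Abcc9 stood below 133 counts, a level that each listed gene reached in some library. Both are thus listed only through the knockout libraries, a rule that favours the direction seen. Tagln and Kcnj8 were not listed.

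Of 11 endothelial markers 3 were listed, all above 0 with a median of 1.39, and the groups did not overlap for 1 of them (33.3%, against 17.4% of all genes). Esam, an adhesion molecule of endothelial junctions, stood at 2.28, 4.59 and 4.24 CPM and 11.3, 17.8 and 10.7 CPM (log2 fold change 1.84, SE 0.34), and passed in DESeq2 (adjusted p = 0.00031) but not in edgeR (adjusted p = 0.57). Its wild type libraries also stood below 133 counts, so Esam is listed only through the knockout libraries. Flt1, a receptor of vascular growth factors, and Eng, or endoglin, had 1.39 (SE 0.48) and 1.06 (SE 0.58). The summed level of the 3 was 29.0 to 73.9 CPM and 75.7 to 219 CPM, and Pecam1, Cdh5 and Kdr were not listed.

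Basal and myoepithelial markers, all 10 of which were listed, lay above 0 for 6, with a median of 0.077 and 1 whose groups did not overlap (10%, against 17.4% of all genes). That gene was Mylk, a kinase of myosin light chains, at 9.98, 19.0 and 19.4 CPM and 52.1, 67.7 and 40.4 CPM (log2 fold change 1.73, SE 0.32, DESeq2 adjusted p = 8.1e-05, edgeR adjusted p = 0.57). Cnn1, or calponin, and the basal keratin Krt14 had 0.78 (SE 0.55) and -0.51 (SE 0.37). Fold changes of these lists kept wild type replicate 1 in the fit. Without it the medians were 0.54 for fibroblast, 0.92 for pericyte, 1.11 for endothelial and -0.15 for basal markers. The part of any of these cell types in the level of Cxcl12 was not tested, and in bulk libraries fewer cells of a type and less RNA per cell cannot be told apart.

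Ccl2, the main ligand of the monocyte receptor Ccr2, lies on chromosome 11 at 82035571 to 82037453, and Ccl7, another Ccr2 ligand, follows it on the plus strand at 82045712 to 82047525 with no annotated gene between them. Ccl2 stood at 15.8, 43.0 and 39.3 CPM in the wild type libraries and at 28.2, 39.3 and 35.8 CPM in the knockout libraries. Wild type replicate 1 was the lowest library, while wild type replicates 2 and 3 stood above every knockout library. For wild type replicate 3 this was by a hair, at 39.34 CPM against 39.33 CPM in knockout replicate 2. Its log2 fold change of 0.074 (SE 0.38, edgeR adjusted p = 0.95) changed sign when wild type replicate 1 (-0.26) or knockout replicate 2 (-0.033) was left out, and it was 0.32 without wild type replicate 2.

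Ccl7 stood at 8.19, 29.7 and 21.4 CPM in wild type replicates 1, 2 and 3 and at 28.1, 34.5 and 31.8 CPM in the knockout libraries. Wild type replicate 2 lay within the knockout range, so the groups overlapped. The log2 fold change was 0.67 (SE 0.44) and missed the threshold (edgeR adjusted p = 0.60), and it was 0.30 without wild type replicate 1 and 1.09 without wild type replicate 2.

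Relative to Ccl2, its neighbour, Ccl7 was higher in every knockout library. Per raw count of Ccl2 there were 0.517, 0.692 and 0.543 counts of Ccl7 in the wild type libraries and 0.996, 0.877 and 0.889 in the knockout libraries, so the groups did not overlap. Such ratios need no scaling between libraries, and neither gene shares any 31-base word with another gene. This pair was singled out after its values were seen. Among all 28 pairs of the 8 chemokines, 7 had ratios that did not overlap between the groups (25%), against 17.4% of all pairs of genes in the table. With 3 libraries against 3 an exact permutation test cannot go below 0.1, and the ratio was not tested.

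Of 19 macrophage markers 16 were listed, 15 of them above 0, with a median log2 fold change of 0.82 and 0 passing the edgeR test. The groups did not overlap for 3 of the 16 (18.8%, against 17.4% of all genes). Their summed level was 905 to 1133 CPM in the wild type libraries and 1344 to 1536 CPM in the knockout libraries. That separation rested on Lyz2, a lysozyme of myeloid cells, at 275, 530 and 257 CPM and 822, 681 and 571 CPM (log2 fold change 0.97, SE 0.32). Without Lyz2, a sum added after the values were seen, the level was 603 to 713 CPM and 676 to 773 CPM, and the groups overlapped. Mpeg1, a pore-forming protein of macrophages, and Itgam, the integrin chain CD11b, gave 0.86 (SE 0.26) and 0.87 (SE 0.27, edgeR adjusted p = 0.57 for all 3 genes). Fcgr1, Fcer1g and Cd163 were not listed. Their mean level was lowest in wild type replicate 1 (4.17 log2 CPM), as were Ccl2 and Ccl7, and the part of these markers in the level of both chemokines was not tested.

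**Figure D2:**
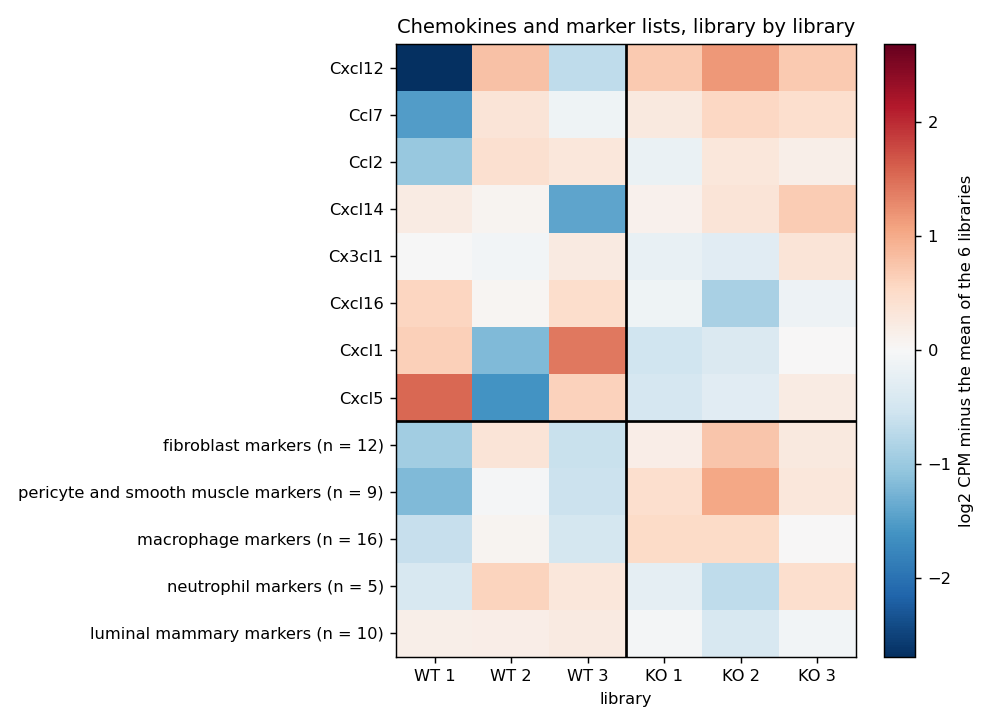
Level of the 8 listed chemokines (upper rows, log2 CPM) and the mean log2 CPM of 5 lists of cell type markers (lower rows) in each library (WT, wild type label; KO, knockout label), minus the mean of the 6 libraries; n is the number of listed markers. Wild type replicate 1 is lowest for Cxcl12, Ccl7, Ccl2, fibroblast, pericyte and macrophage markers, and wild type replicate 2 is lowest for Cxcl1 and Cxcl5.

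Cxcl16, a transmembrane chemokine that binds Cxcr6 and also acts as a scavenger receptor for lipoproteins, was the single member whose groups did not overlap. It lies on chromosome 11 at 70453983 to 70459984 on the minus strand. It stood at 159, 110 and 147 CPM in the wild type libraries and at 98.3, 58.2 and 97.0 CPM in the knockout libraries. Every knockout library was below every wild type library, with knockout replicate 2 the lowest. The wild type mean was 139 CPM ± 25.8 (SD, n = 3) against 84.5 CPM ± 22.8 (SD, n = 3). The log2 fold change was -0.72 (SE 0.24) and missed the threshold (edgeR adjusted p = 0.57, DESeq2 adjusted p = 0.23). It ranged from -0.86 without wild type replicate 2 to -0.51 without knockout replicate 2 as single libraries were left out. Groups that do not overlap in this direction were found for 9.05% of all genes.

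The exons of Cxcl16 overlap those of Zmynd15, a zinc finger gene on the opposite strand, over 18.3% of their bases, and 21.6% of the 31-base words of the Cxcl16 transcript occur in Zmynd15. Of all other genes, Zmynd15 had the profile over the 6 libraries nearest to that of Cxcl16. The root mean square difference was 0.129 log2 CPM between profiles centred on their own means. Zfp970 and Pou6f1 were almost as near, at 0.134 and 0.136. The groups of both were separate and lower with the knockout label, while those of Zmynd15 overlapped. Zmynd15 had 329, 232 and 354 counts in the wild type libraries and 260, 149 and 246 in the knockout libraries. There were 7.81 to 10.3 counts of Cxcl16 for each count of Zmynd15. How the counting treated strand is not given in the sources used, so reads of the overlap cannot be told apart between these genes.

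**Figure D3:**
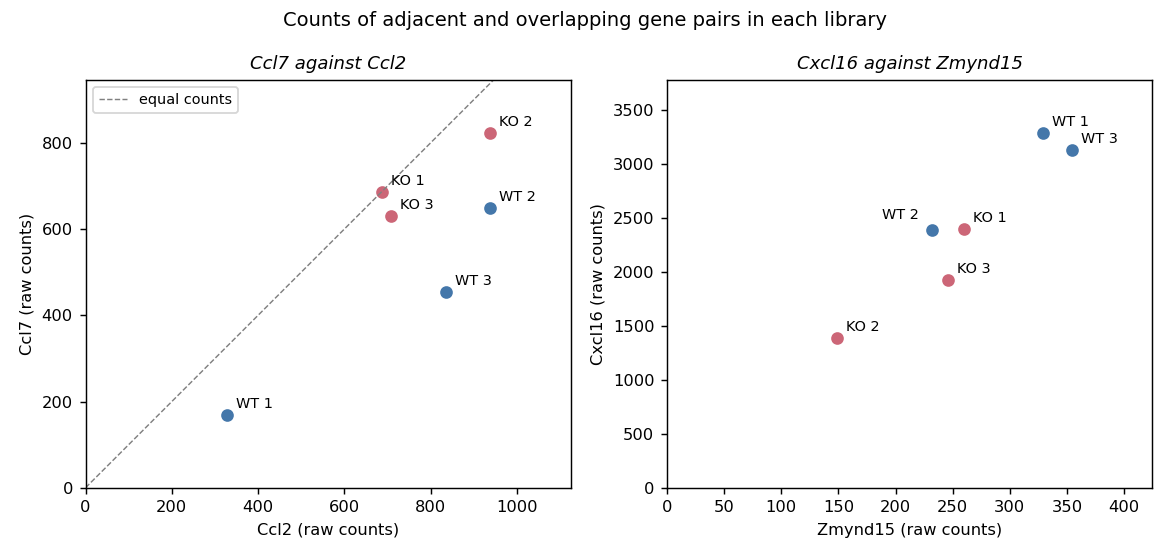
Raw counts in each of the 6 libraries (WT, wild type label, blue; KO, knockout label, red) for Ccl7 against its neighbour Ccl2 (left, dashed line at equal counts) and for Cxcl16 against Zmynd15, which overlaps it on the opposite strand (right). The knockout libraries lie nearer to the line of equal counts than the wild type libraries, and Cxcl16 and Zmynd15 lie along 1 common slope.

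Luminal markers, the marker list of the tumor epithelium, stood lower on average with the knockout label, as Cxcl16 did. Of 13 markers 10 were listed, 9 of them below 0, with a median log2 fold change of -0.42 and 0 passing the edgeR test, and the groups did not overlap for 3 (30%, against 17.4% of all genes). Krt7, a keratin of glandular epithelium, stood at 887, 977 and 793 CPM and 668, 562 and 557 CPM (log2 fold change -0.57, SE 0.13), and passed in DESeq2 (adjusted p = 0.0053) but not in edgeR (adjusted p = 0.57). Prom1, a surface protein of luminal cells, and the keratin Krt19 had -0.45 (SE 0.12) and -0.51 (SE 0.14) and passed in neither. The summed level of the 10 was 5542 to 5936 CPM in the wild type libraries and 3727 to 4838 CPM in the knockout libraries, lowest in knockout replicate 2, and Foxa1, Muc1 and Esr1 were not listed. The part of these markers in the level of Cxcl16 was not tested.

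Cx3cl1, or fractalkine, is a membrane-anchored chemokine that holds and attracts cells with the receptor Cx3cr1. It lies on chromosome 8 at 94772009 to 94782427 on the plus strand. It stood at 50.3, 48.1 and 60.1 CPM in the wild type libraries and at 44.1, 41.0 and 64.2 CPM in the knockout libraries. In both groups replicate 3 was the highest and the groups overlapped. The log2 fold change of -0.086 (SE 0.19, edgeR adjusted p = 0.87) changed sign when wild type replicate 3 (0.021) or knockout replicate 2 (0.036) was left out, and it was -0.31 without knockout replicate 3.

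Cxcl14, a chemokine made by many epithelia and by tumor fibroblasts, lies on chromosome 13 at 56288643 to 56296551 on the minus strand. It stood at 118, 107 and 38.2 CPM in the wild type libraries and at 110, 131 and 163 CPM in the knockout libraries. Wild type replicate 3 was well below every other library, while wild type replicate 1 lay above knockout replicate 1. Means of 87.8 CPM ± 43.4 (SD, n = 3) for wild type and 135 CPM ± 26.8 (SD, n = 3) for knockout gave a log2 fold change of 0.62 (SE 0.42), which missed the threshold (edgeR adjusted p = 0.60). It was 0.26 without wild type replicate 3.

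The spread within the groups was uneven. The highest wild type library exceeded the lowest by 11.1 times for Cxcl12, 8.90 times for Cxcl5, 6.07 times for Cxcl1, 3.63 times for Ccl7, 3.10 times for Cxcl14 and 2.71 times for Ccl2. The same ratio among knockout libraries lay between 1.23 for Ccl7 and 1.69 for Cxcl16. A ratio above 2 within the wild type group was found for 6 of the 8, against 11.6% of all genes, and within the knockout group for 0 of the 8, against 5.02% of all genes. It was not particular to the chemokines. Within the wild type group 11 of 12 fibroblast, 7 of 9 pericyte, 3 of 3 endothelial, 7 of 16 macrophage and 0 of 10 luminal markers had such a ratio. Within the knockout group 3, 3, 2, 6 and 1 of these markers did. The wild type range was wider than the knockout range for 6 of the 8, against 63.3% of all genes. The exceptions were Cxcl16 (1.45 and 1.69) and Cx3cl1 (1.25 and 1.57). A difference in variance between the groups was not tested.

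**Figure D4:**
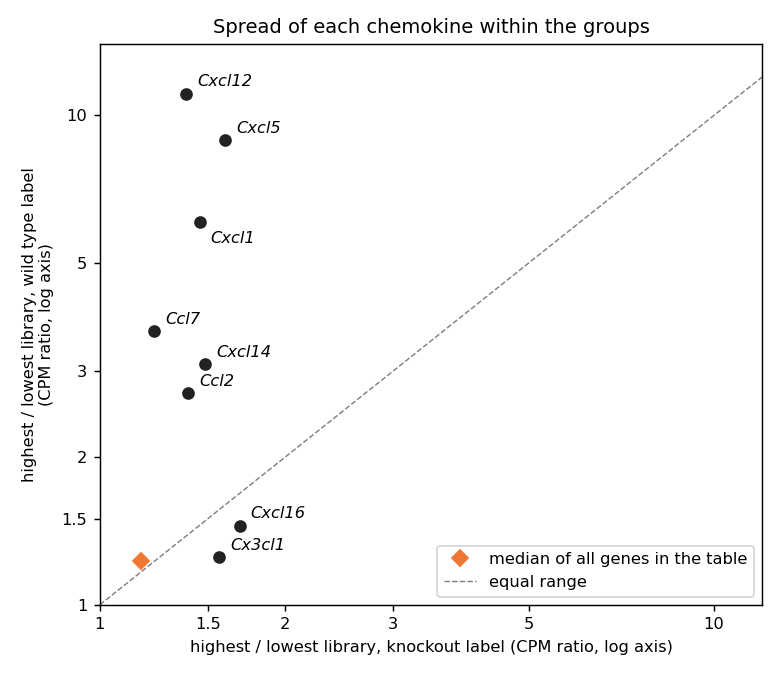
Ratio of the highest to the lowest library in CPM among 3 libraries labelled wild type (y axis) and among 3 labelled knockout (x axis), both on log axes, for each of the 8 listed chemokines (black) and as the median of all genes (orange; 1.23 and 1.17). Of the black points, 6 lie above the dashed line of equal range, while Cxcl16 and Cx3cl1 lie below it.

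The wild type libraries did not share 1 pattern. Wild type replicate 1 was the lowest of the 6 libraries for Cxcl12, Ccl2 and Ccl7 and the highest for Cxcl5 and Cxcl16. Wild type replicate 2 was the lowest for Cxcl1 and Cxcl5 and the highest for Ccl2. Wild type replicate 3 was the highest for Cxcl1 and the lowest for Cxcl14. Over all genes, wild type replicate 1 was the lowest library for 31.6%, against 3 of the 8 chemokines.

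Levels between genes were compared per kilobase of annotated exons, as RPKM (CPM divided by the union length of the exons). In the wild type libraries Cxcl14 had the highest mean, 48.1 RPKM ± 23.7 (SD, n = 3), followed by Cxcl16 at 45.9 ± 8.55, Ccl2 at 28.8 ± 12.9, Cxcl1 at 25.6 ± 18.3, Ccl7 at 24.7 ± 13.6, Cxcl5 at 24.4 ± 19.9, Cx3cl1 at 13.4 ± 1.62 and Cxcl12 at 1.56 ± 1.50. Over the libraries each gene overlapped the next in this order, except Cx3cl1 and Cxcl12. Cxcl14 and Cxcl16 thus did not differ beyond their spread, and neither did Ccl2, Cxcl1, Ccl7 and Cxcl5. In the knockout libraries Cxcl14 was again highest at 73.6 RPKM ± 14.7 (SD, n = 3), followed by Ccl7 at 39.3 (35.1 to 43.1 over the libraries), Ccl2 at 30.3 ± 4.97 and Cxcl16 at 28.0 ± 7.55. Ccl2 and Cxcl16 overlapped, with Cxcl16 the higher of these in knockout replicates 1 and 3. Cxcl5 at 13.9 ± 3.60, Cxcl1 at 13.5 ± 2.72 and Cx3cl1 at 12.7 ± 3.21 did not differ beyond their spread, and Cxcl12 was lowest at 3.43 ± 0.667. The low rank of Cxcl12 depends in part on its annotated exon length of 8.18 kb, the longest of the 8, which adds up all isoforms.

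The genes with the nearest profiles over the 6 libraries were taken for the 4 chemokines with the widest range. For Cxcl12 they were Serping1, which encodes the inhibitor of complement C1, Clec2e and Grk3, a kinase that desensitises G protein-coupled receptors, at root mean square differences of 0.30, 0.36 and 0.41 log2 CPM. Serping1 stood at 12.6, 95.5 and 44.3 CPM in the wild type libraries and 68.6, 121 and 82.2 CPM in the knockout libraries, with the same low value in wild type replicate 1. For Cxcl1 they were Muc20, a membrane mucin, Steap4, a metalloreductase, and Afap1l1, at 0.30, 0.37 and 0.42. For Cxcl5 they were Steap4, Pms2, a DNA mismatch repair gene, and Dtx4, at 0.45, 0.50 and 0.52, and Cxcl1 ranked 5th at 0.53. Steap4 stood at 275, 75.1 and 248 CPM in the wild type libraries and 93.8, 76.2 and 167 CPM in the knockout libraries. For Cxcl14 they were Arg1, or arginase, the pseudogene Rpl17-ps10 and Sema5a, a semaphorin, at 0.18, 0.25 and 0.31. These are descriptions over 6 libraries of 2 groups, among 10994 other genes.

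Other ligands were listed for 7 of 31 genes, of which 5 lay above 0, and the groups did not overlap for 2 (28.6%, against 17.4% of all genes). Besides Cxcl3, Mif, a cytokine that also binds Cxcr2 and Cxcr4, was narrowly separate between the groups. It stood at 155 to 186.7 CPM and 187.5 to 239 CPM (log2 fold change 0.25, SE 0.13). The macrophage chemokines Ccl6 and Ccl9, which neighbour each other on chromosome 11, stood 0.63 (SE 0.27) and 0.80 (SE 0.34) higher on the log2 scale. Pf4, the platelet chemokine, had 0.46 (SE 0.42), Ccl25 had -0.14 (SE 0.14) and Ccl27a had -0.61 (SE 0.41). Ccl27a and Mif share 81.4% and 54.9% of their words with other genes, so their reads are uncertain. None passed the edgeR test (adjusted p from 0.57 to 0.69).

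Of 24 receptors, 3 were listed, and all lay above 0. Ccr1, a receptor of myeloid cells, stood at 5.23, 7.25 and 5.51 CPM with the wild type label and 9.81, 13.1 and 7.82 CPM with the knockout label, a log2 fold change of 0.77 (SE 0.24). Ackr3, the atypical receptor that takes up Cxcl12, stood at 8.34, 11.9 and 6.68 CPM and 12.2, 12.5 and 17.3 CPM, a log2 fold change of 0.64 (SE 0.26). For both, all knockout libraries exceeded all wild type libraries, which held in this direction for 8.39% of all genes. Cmklr1, the receptor of chemerin, had a log2 fold change of 0.27 (SE 0.32). None passed (edgeR adjusted p from 0.57 to 0.74). The receptors of most of the 8 ligands, Cxcr2, Cxcr4, Cxcr6, Ccr2 and Cx3cr1, were not listed and were not analysed here.

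**Figure D5:**
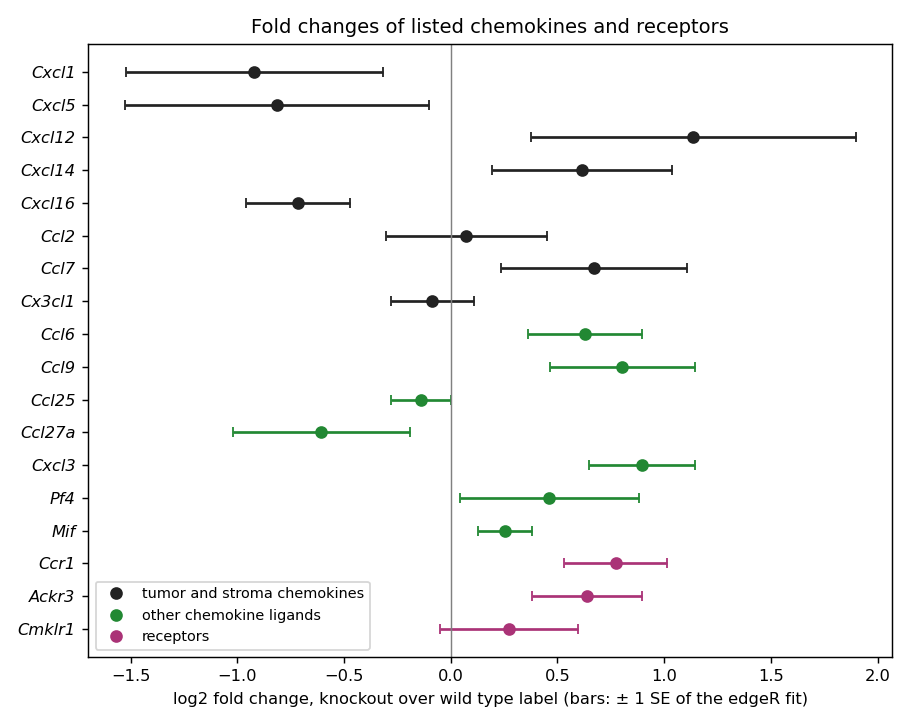
Log2 fold change (knockout over wild type label, 3 libraries each) of the 8 listed chemokines (black), 7 other chemokine ligands (green) and 3 receptors (purple); bars are 1 SE of the edgeR fit. None of the 18 genes passed the test after adjustment over the whole table, and the black points lie on both sides of 0.

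Genes of the NF-kB system, which drives transcription of Cxcl1, Cxcl2 and Ccl2 in many cells, stood lower on average with the knockout label. Of 24 such genes 23 were listed, of which 18 lay below 0, with a median log2 fold change of -0.17, and the groups did not overlap for 3 (13.0%, against 17.4% of all genes). Tnfaip3, which encodes the feedback inhibitor A20, stood at 349, 334 and 441 CPM and 301, 271 and 242 CPM (log2 fold change -0.46, SE 0.14). Nfkb2, an NF-kB subunit, and Nfkbia, the inhibitor IkBa, had -0.37 (SE 0.12) and -0.68 (SE 0.23). The adjusted p was 0.57 for each in edgeR.

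Among genes of chemokine mRNA turnover, which are not all decay factors, 12 of 14 listed lay below 0 with a median of -0.068. The groups did not overlap for 2 (14.3%, against 17.4% of all genes). Zfp36, which encodes the decay factor tristetraprolin, stood at 41.0, 38.3 and 42.1 CPM and 27.8 to 33.6 CPM (log2 fold change -0.39, SE 0.10), and the ribonuclease gene Zc3h12a and the adaptor gene Traf3ip2 had -0.62 (SE 0.24) and -0.20 (SE 0.11). None passed (edgeR adjusted p = 0.57). Among cytokines that induce chemokines and their receptors, 13 of 24 listed lay above 0 with a median of 0.050, and the groups did not overlap for 6 (25%, against 17.4% of all genes). Il6, the cytokine interleukin 6, stood at 3.30, 10.4 and 5.74 CPM and 23.6, 35.4 and 17.2 CPM. Its log2 fold change of 1.97 (SE 0.48) passed in DESeq2 (adjusted p = 0.0070) and did not pass in edgeR (adjusted p = 0.57). Lifr, the receptor of leukemia inhibitory factor, and Il1r1, the receptor of interleukin 1, had 0.91 (SE 0.24) and 0.77 (SE 0.26) and passed in neither.

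Among genes that release chemokines or hold them at the cell surface, 10 of 20 listed lay above 0, with a median of -0.0018, and the groups did not overlap for 3 (15%, against 17.4% of all genes). Hs6st1 and Ndst1, enzymes that sulfate heparan sulfate, gave fold changes on the log2 scale of -0.34 (SE 0.13) and -0.36 (SE 0.15), and Sulf1, which removes such sulfates, had 1.01 (SE 0.40). Among genes of receptor signalling, 18 of 34 listed lay above 0, with a median of 0.033. The groups did not overlap for 10 of the 34, of which 7 were higher and 3 lower with the knockout label (29.4%, against 17.4% of all genes). Vav1, a guanine nucleotide exchange factor of blood cells, stood at 3.34, 7.02 and 6.49 CPM and 12.6, 12.3 and 10.9 CPM (log2 fold change 1.08, SE 0.29). Pxn, or paxillin, an adaptor of focal adhesions, stood at 265, 243 and 250 CPM and 230, 218 and 218 CPM (log2 fold change -0.19, SE 0.069), and the small GTPase gene Rap1a had 0.26 (SE 0.096). None of these genes passed (edgeR adjusted p = 0.57).

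Of neutrophil markers, the cells that Cxcl1 and Cxcl5 attract, 5 of 13 were listed, 2 of them above 0, with a median log2 fold change of -0.014. Their values did not share 1 direction. S100a9, a calcium-binding protein of neutrophils, stood at 1.70, 9.31 and 0.706 CPM and 0.616, 0.629 and 0.606 CPM (log2 fold change -2.65, SE 1.01). Mmp8, the neutrophil collagenase, stood at 3.05, 10.8 and 8.42 CPM and 13.7, 14.2 and 17.2 CPM (log2 fold change 1.01, SE 0.44). The groups of both were separate, in opposite directions (40% of the 5, against 17.4% of all genes), and neither passed (edgeR adjusted p = 0.57). For S100a9 only wild type replicate 2 stood high, and wild type replicate 3 (0.706 CPM) barely exceeded knockout replicate 2 (0.629 CPM). Every listed gene reached 133 counts in some library. S100a9 is thus listed only through wild type replicate 2, a rule that favours the direction seen. Ltf, or lactoferrin, had -0.97 (SE 0.87). The summed level of the 5 was 3602 to 6070 CPM and 3316 to 6127 CPM, of which Lcn2, a gene also known from epithelia, made up 96.1% to 98.2% in every library, so that sum describes Lcn2. The other 4 together stood at 100 to 240 CPM and 59.4 to 216 CPM. Csf3r, Ly6g, Mpo and Cxcr2 were not listed.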

How the data were processed

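Per the labels' protocols, column-purified RNA went into NEBNext Ultra libraries that were read from both ends at 150 bases. The deposited file holds raw counts of reads for each gene symbol, which the authors did not normalize. HISAT2, featureCounts, CASAVA 1.8 and the build GRCm38 (mm10) are named in the submitters' processing notes. No listed gene stayed below 133 counts in all libraries, so low genes had been removed by a rule not given in the sources used here.

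Counts were fitted with edgeR 4.0.16 in R 4.3.3 (filterByExpr, which removed 0 rows, TMM scaling, robust quasi-likelihood F test, group as the only term). SE is the log2 fold change divided by the root of F. DESeq2 1.42.0 and limma-voom (limma 3.58.1) were alternatives, with other scalings, no filter, a replicate block and each library left out. Log2 CPM used a prior count of 2. Gene models came from GENCODE M21. Shared sequence was the share of 31-base words, on either strand, found in transcripts of another gene. Of the 10 genes, 6 matched the RefSeq promoter table.

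The 8 listed genes, every listed ligand and receptor, and of each other list up to 3 genes with the smallest unadjusted p are named. The marker genes Krt8, Col1a1, Adgre1 and Lcn2, the genes Zmynd15, Zfp970 and Pou6f1 and the Ccl2 and Ccl7 pair were chosen after their values were seen. The members and the lists were chosen with earlier results of these data known. No pair of libraries differed as little as counting noise, with chi-square over degrees of freedom at 23.3 or more.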

Additional observations from a re-analysis of the deposited data

How the results depend on the processing

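No setting moved a listed chemokine past the threshold, and of 96 values (8 genes, 12 settings) 92 kept their direction. The others were Ccl2, at -0.26 when wild type replicate 1 was left out and -0.033 when knockout replicate 2 was, and Cx3cl1, at 0.021 when wild type replicate 3 was left out and 0.036 when knockout replicate 2 was; the cause was not tested. With single libraries left out Ccl2 lay between -0.26 and 0.32 and Cx3cl1 between -0.31 and 0.036. DESeq2 called 103 genes of the table and 6 of the pathway and marker lists, where edgeR called 0 and 0. The 6 were Rgs5, Abcc9, Esam, Mylk, Il6 and Krt7, of which Rgs5, Abcc9 and Esam are listed only through the knockout libraries. With single libraries left out edgeR called 0 to 2 genes of the table, the 2 without wild type replicate 2. With limma-voom the log2 fold change of Cxcl1 was -0.60 and that of Cxcl5 -0.36. Deviations from the group means correlated at -0.11, 0.35 and -0.25 for replicate numbers 1, 2 and 3, and libraries did not all correlate best with their own number. With 3 libraries in each group such correlations cannot settle whether the numbers pair the libraries. With a replicate block the SE of Cxcl16 was 0.094 in place of 0.24, and that of Cx3cl1 was 0.10 in place of 0.19. Only Cxcl14 had a larger SE with the block, at 0.50 in place of 0.42. With the replicate block edgeR called 0 genes of the table and 0 of the 8, and the log2 fold change of Cxcl1 was -0.63, of Cxcl5 -0.38, of Cxcl12 1.63 and of Ccl2 0.18. The number of libraries limits the precision, and the lowest count of a listed chemokine was 49, for Cxcl12 in wild type replicate 1.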

Other observations

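Ratios between members gave values that the levels alone do not show. Of the 7 pairs of chemokines whose count ratio did not overlap between the groups, 4 included Cxcl16 and 3 did not. Apart from Ccl7 with Ccl2, these 3 were Cxcl12 with Ccl2 and Cxcl14 with Cx3cl1. Per count of Ccl2 there were 0.150, 0.613 and 0.243 counts of Cxcl12 in wild type replicates 1, 2 and 3 and 0.879, 0.874 and 0.700 in the knockout libraries. Per count of Cx3cl1 there were 2.35, 2.22 and 0.636 counts of Cxcl14 in the wild type libraries and 2.49, 3.18 and 2.54 in the knockout libraries. All were singled out after their values were seen and were not tested.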
